A study of Homo sapiens with 9 samples.

Results

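The cancer-testis antigens described here are the protein-coding genes whose GENCODE symbol belongs to the MAGEA, MAGEB, MAGEC, GAGE, PAGE, XAGE, SSX, CT45A, CT47A, CTAG, CSAG or SPANX series. The symbol rule found 95 such genes among the 60617 genes of the tables, in 12 families, and all 95 lie on chromosome X. They were measured by RNA sequencing in PC-3 cells, an established human epithelial line from a bone metastasis of prostate cancer. The groups were vehicle-treated cells (Ctrl), cells given 1 µM decitabine (Dec), and cells given 1 µM decitabine together with 200 µM S-adenosylmethionine (Dec_Sam), each with 3 libraries taken at day 5. Decitabine is a cytidine analogue that is built into DNA and traps DNA methyltransferases, and S-adenosylmethionine (SAM) is the methyl donor that these enzymes use. Cells given only SAM are not part of the comparison. The labels do not say that the 3 libraries of a group came from separate cultures, so the p-values measure only the spread between these libraries, which may be technical, and all of them come from 1 cell line.

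Cancer-testis antigens are proteins made in male germ cells and in many tumours but in few other adult tissues. Their X-linked families arose by repeated duplication, so several members are near-identical copies, and in somatic cells their promoters are usually methylated and silent. MAGE proteins bind RING ubiquitin ligases, SSX proteins repress transcription, SPANX proteins sit at the nuclear envelope of sperm, and the GAGE, PAGE and XAGE proteins are small, acidic and largely disordered.

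The promoters of the genes that the results turn on are shown first, from a gene that was on in control cells and from genes that were silent there. Each window holds 250 bases before and 50 bases after the transcription start that RefSeq gives, 300 bases in all, in GRCh38.p14. In the first set the capitals mark CpG dinucleotides, the sites that DNA methyltransferases modify. MAGEA3 (chrX:152698544-152698843, plus strand, 19 CpG) was on in control cells, and the window of MAGEA6 is identical to it. MAGEA4 (chrX:151912224-151912523, plus strand, 10 CpG), MAGEB2 (chrX:30215313-30215612, plus strand, 21 CpG) and MAGEC1 (chrX:141903644-141903943, plus strand, 14 CpG) were silent or nearly so in control cells and on after decitabine.
MAGEA3: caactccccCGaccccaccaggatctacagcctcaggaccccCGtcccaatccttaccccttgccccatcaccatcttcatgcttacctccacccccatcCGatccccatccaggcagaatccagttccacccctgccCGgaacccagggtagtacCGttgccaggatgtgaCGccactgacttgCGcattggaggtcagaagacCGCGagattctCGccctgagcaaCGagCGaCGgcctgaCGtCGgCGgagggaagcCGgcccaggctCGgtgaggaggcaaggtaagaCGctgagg
MAGEA4: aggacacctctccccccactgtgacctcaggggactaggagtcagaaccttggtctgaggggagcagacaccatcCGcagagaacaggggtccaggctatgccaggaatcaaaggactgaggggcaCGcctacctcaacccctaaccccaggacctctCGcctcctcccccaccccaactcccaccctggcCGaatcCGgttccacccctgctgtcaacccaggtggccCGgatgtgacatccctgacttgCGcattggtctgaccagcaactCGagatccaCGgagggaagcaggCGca
MAGEB2: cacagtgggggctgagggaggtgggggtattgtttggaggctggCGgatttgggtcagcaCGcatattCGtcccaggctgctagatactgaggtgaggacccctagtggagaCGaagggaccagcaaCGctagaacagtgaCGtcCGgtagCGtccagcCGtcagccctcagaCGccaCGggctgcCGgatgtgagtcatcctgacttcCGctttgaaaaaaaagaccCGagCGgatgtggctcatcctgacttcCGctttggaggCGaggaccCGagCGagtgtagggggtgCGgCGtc
MAGEC1: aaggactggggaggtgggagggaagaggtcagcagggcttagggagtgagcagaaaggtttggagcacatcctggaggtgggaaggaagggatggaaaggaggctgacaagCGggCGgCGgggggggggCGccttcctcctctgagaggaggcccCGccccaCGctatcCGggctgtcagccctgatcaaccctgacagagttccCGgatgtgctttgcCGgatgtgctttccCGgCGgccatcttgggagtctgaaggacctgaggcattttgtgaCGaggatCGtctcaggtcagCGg
In the second set the capitals mark a motif. GAGE12F (chrX:49560592-49560891, plus strand) holds CACGTG, the E-box that MGA recognises, and SSX1 (chrX:48255142-48255441, plus strand) holds GCGGGAA, the core of the E2F6 site.
GAGE12F: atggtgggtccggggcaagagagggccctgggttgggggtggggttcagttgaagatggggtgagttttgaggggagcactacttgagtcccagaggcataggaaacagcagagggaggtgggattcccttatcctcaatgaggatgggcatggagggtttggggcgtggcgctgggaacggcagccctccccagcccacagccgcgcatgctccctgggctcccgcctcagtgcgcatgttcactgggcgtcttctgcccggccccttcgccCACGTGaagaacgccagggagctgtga
SSX1: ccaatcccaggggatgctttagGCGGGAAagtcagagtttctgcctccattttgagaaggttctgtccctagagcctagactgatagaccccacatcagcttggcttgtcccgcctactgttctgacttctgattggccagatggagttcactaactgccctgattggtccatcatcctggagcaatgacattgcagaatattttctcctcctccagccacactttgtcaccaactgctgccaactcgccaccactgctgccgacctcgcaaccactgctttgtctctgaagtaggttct

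RefSeq windows matched 67 of the 95 symbols, and 66 of these touched the GENCODE gene of the same symbol. The exception was GAGE12B, which was left out of the promoter counts. The 66 windows held a median of 10 CpG (range 1 to 21), against 14 over all 27305 windows of the table. Searched on both strands, CACGTG was in 11 of 11 GAGE windows and 4 of 6 PAGE windows, against 7.43% of all windows. GCGGGAA or its complement was in 6 of 7 SSX windows, against 6.56% of all. GGATGTG, a sequence noticed in the printed MAGE windows and then counted, was in 10 of 10 MAGEA windows, 2 of 2 CSAG, 2 of 10 MAGEB, 2 of 3 MAGEC and 2 of 7 SSX windows, against 4.31% of all. It stands in 1 copy in the MAGEA3 and MAGEA4 windows, in 2 copies in that of MAGEB2 and in 3 copies in that of MAGEC1. CCGGAA, the ETS core, was in the windows of MAGEA3, MAGEA6, CT45A10 and MAGEB6, which is 6.06% of the 66, against 17.6% of all windows, and CT45A10 and MAGEB6 had no counts in Ctrl. Windows within a family are copies of one another (pairs of GAGE windows are 85.3 to 100% identical), so the windows of a family are not independent. The 10 matched genes with a control mean of at least 10 counts had a median of 16.5 CpG (range 9 to 21). The 31 that had less in Ctrl and at least 10 in Dec had a median of 10 CpG (range 1 to 21). The 25 with under 10 in both groups also had a median of 10 CpG (range 1 to 14). Of the 10 genes on in Ctrl, 7 lie within 1 stretch of 70950 bases, so their windows are not independent.

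The 9 libraries held between 21934307 and 22489684 estimated reads. Values below are rounded estimated counts, or CPM, which are counts scaled to a common library size with TMM factors that adjust for the makeup of each library. The TMM factors were 0.895 to 0.902 in Ctrl, 1.058 to 1.078 in Dec and 1.033 to 1.070 in Dec_Sam. The epithelial markers KRT8 and KRT18 were present in every library, and the prostate marker KLK3 had no counts in any. Markers of fibroblasts, led by the collagen genes COL1A1 and COL1A2, rose with the treatments, all 4 of 4 in both comparisons with Ctrl, and their summed level was 3.01 to 4.90 CPM in Ctrl, 87.2 to 131 CPM in Dec and 71.0 to 102 CPM in Dec_Sam. Of the 4 blood markers, CD68 and PTPRC rose in both, and the sum was 38.2 to 47.9, 222 to 300 and 104 to 182 CPM in the same order. The part of these markers in the results was not tested, and in bulk RNA more cells with a transcript and more transcript per cell cannot be told apart. Of the 5 markers of late male germ cells, PRM1, PRM2 and TNP1 were at 0 in all 9 libraries and ACR and ODF1 summed to at most 0.0844 CPM.

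Every family had members called higher in Dec than in Ctrl, except CT47A, which was higher as the sum of its loci. Summed over all 95 genes, the families took 392 ± 9.13 CPM in Ctrl, 1050 ± 56.9 CPM in Dec and 992 ± 55.2 CPM in Dec_Sam (SD, n = 3). In Ctrl, the 2 genes MAGEA3 and MAGEA6 made up 80 to 81.3% of that sum, against 29.3 to 32.1% in Dec and 32.3 to 36.8% in Dec_Sam. Without MAGEA3 and MAGEA6 the sum was 72.6 to 78.2 CPM in the Ctrl libraries, 690 to 765 in Dec and 635 to 662 in Dec_Sam, and the 3 groups did not overlap. The number of members with a mean of at least 10 counts was 13 in Ctrl, 56 in Dec and 58 in Dec_Sam. No counts at all were assigned to 51 members in Ctrl, 19 in Dec and 21 in Dec_Sam.

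**Figure D1:**
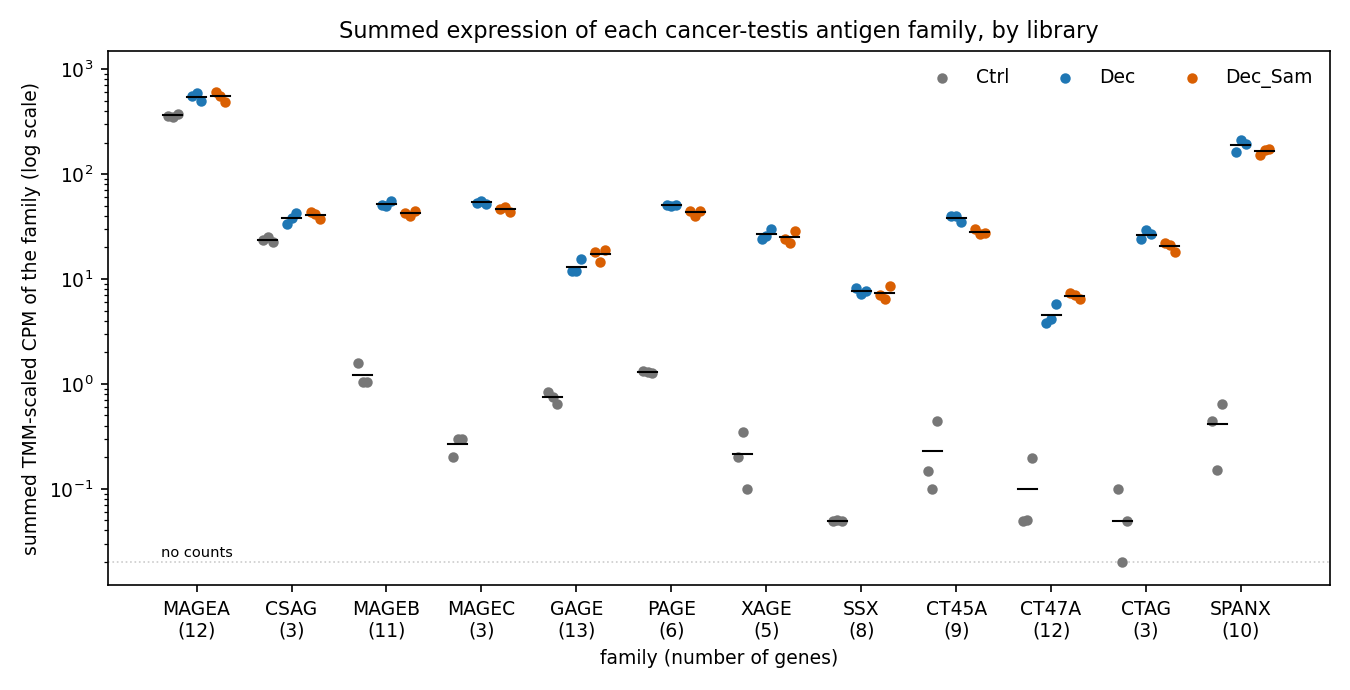
Summed TMM-scaled CPM of each family (log axis) in each library, with 3 points per group and a black line at the group mean; a library without counts is drawn on the dotted line. MAGEA and CSAG had 363 and 23.8 CPM in Ctrl on average, while the other 10 families had at most 1.31 CPM in Ctrl and at least 4.59 CPM in Dec and 6.94 CPM in Dec_Sam.

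In the quasi-likelihood test of edgeR over all genes with enough counts, 57 members were tested. Against Ctrl, 51 of the 57 were higher in Dec and 0 lower (Benjamini-Hochberg adjusted p under 0.05), while of all 18532 genes tested 36.3% were higher and 32.5% lower. In Dec_Sam, 54 were higher than in Ctrl and 0 lower, against 35.9% and 31.3% of all genes. DESeq2 and voom with limma also called 0 members lower, and at an unadjusted p under 0.05 the number lower was 0 with each of the 3 tools. Both comparisons use the same Ctrl libraries. Of the 57, 28 had a control mean under 1 count and entered the test only through the treated libraries, where they had to be higher. Only 13 members had a control mean of at least 10 counts, so others of the 57 also passed the filter mainly through the treated libraries. The counts of calls, and the medians and non-overlap given next, therefore describe the members and are not support for a direction. The median log2 fold change of the tested members was 7.10 in Dec and 6.98 in Dec_Sam, beside 0.035 and 0.048 over all genes. The Dec libraries lay wholly above the Ctrl libraries for 52 members (38.1% of all genes did) and the Dec_Sam libraries for 53 (38.0%). Of the other protein-coding genes of chromosome X, 525 were tested, and 35.0% were higher and 40.0% lower in Dec, and 35.8% and 38.7% in Dec_Sam. Of the 38 members not tested, 13 had no counts in any library (CT45A2, CT47A7, GAGE12B, GAGE12C, GAGE12D, GAGE12E, GAGE12G, GAGE12H, MAGEA9, PAGE4, SPANXN3, SPANXN4 and SPANXN5) and the other 25 had at most 33 counts in a library.

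**Figure D2:**
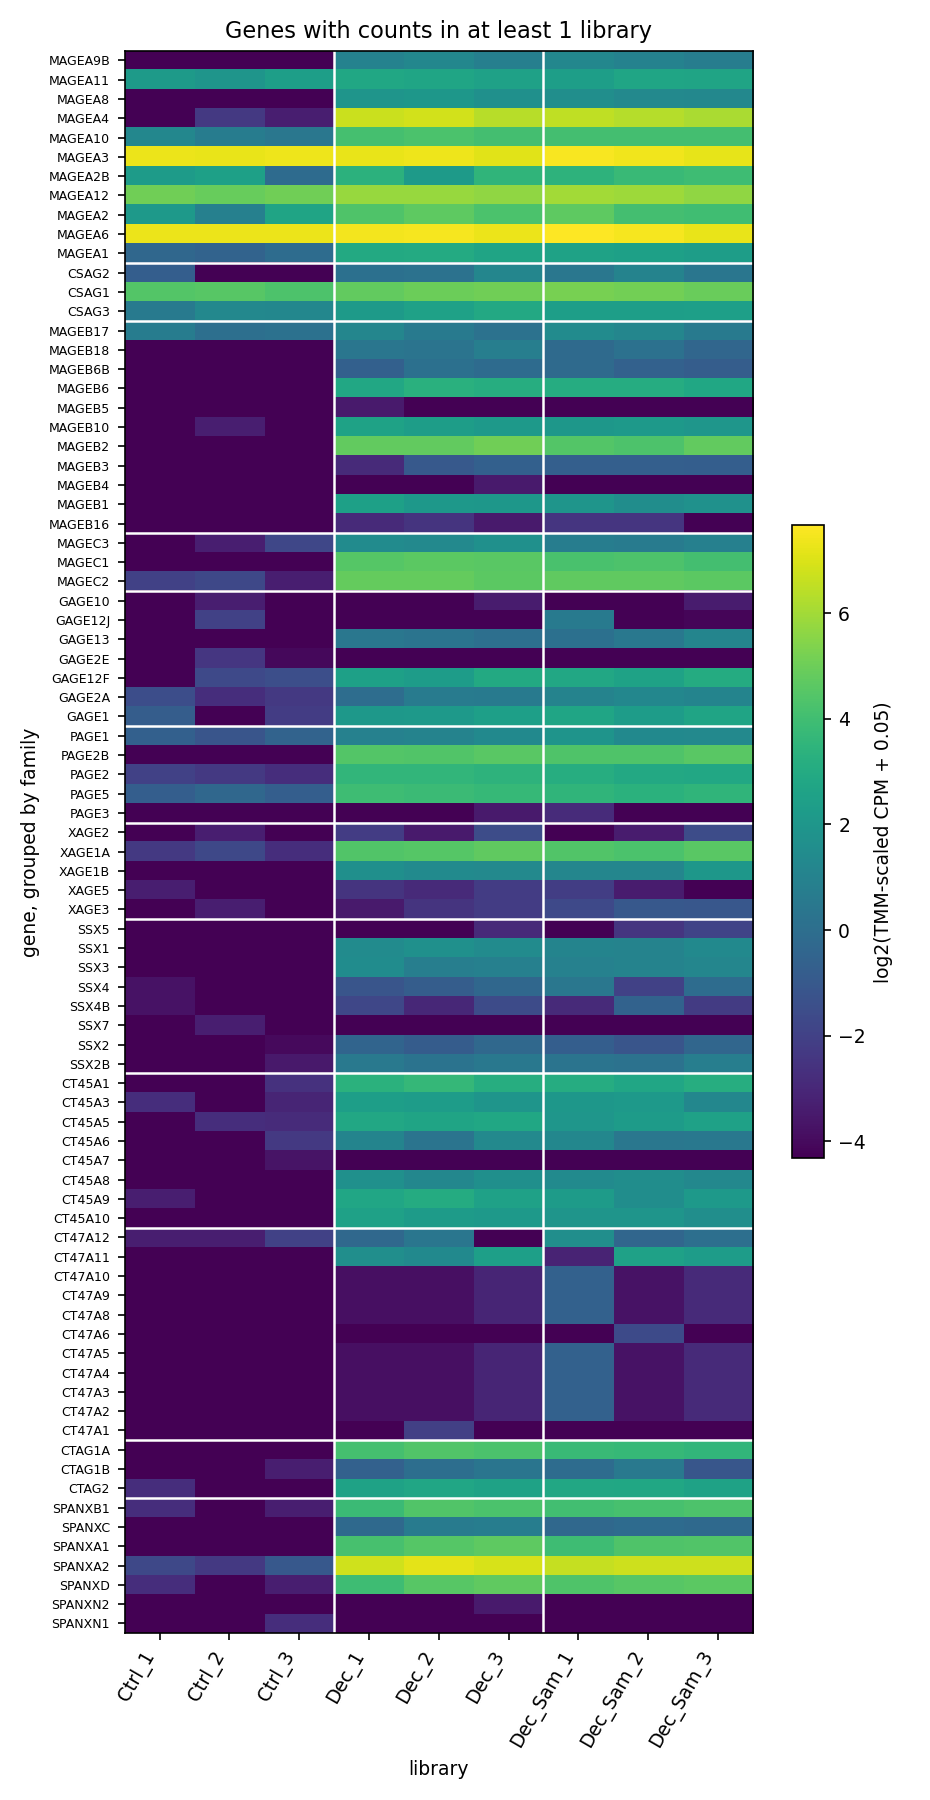
log2(TMM-scaled CPM + 0.05) of the 82 members with counts in at least 1 library (rows, by family and position) in the 9 libraries (columns). No counts at all were assigned to 51 of the 95 members in Ctrl, against 19 in Dec and 21 in Dec_Sam, and MAGEA3, MAGEA6, MAGEA12 and CSAG1 are bright in all 9.

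Of the 13 members with a control mean of at least 10 counts, 8 were MAGEA genes, and the others were CSAG1, CSAG3, MAGEB17, PAGE1 and PAGE5. MAGEA3 (ENSG00000221867, X:152698767-152702347), which with MAGEA6 directs TRIM28 to its substrates, had 3142, 3078 and 3357 counts in Ctrl, 3628, 3904 and 3286 in Dec, and 4231, 3814 and 3528 in Dec_Sam. MAGEA6 had 3145, 3131 and 3249 counts in Ctrl, 4079, 4308 and 3707 in Dec, and 4631, 4127 and 3583 in Dec_Sam. The CPM of both overlapped between the groups, and neither passed the test in Dec (log2 fold change -0.06 ± 0.09 SE, adjusted p = 0.57, and 0.11 ± 0.09, adjusted p = 0.30) or in Dec_Sam (0.08 ± 0.08, adjusted p = 0.43, and 0.18 ± 0.09, adjusted p = 0.098). With library size alone in place of TMM, which raises the median of all genes to 0.281 in Dec and 0.268 in Dec_Sam, both were called higher in both comparisons (MAGEA3 0.19 and 0.30, MAGEA6 0.36 and 0.40), so the direction for MAGEA3 in Dec depends on the scaling. MAGEA12 (X:152733757-152737669) was called higher, from 665, 590 and 677 counts in Ctrl to 1316, 1326 and 1212 in Dec and 1482, 1353 and 1196 in Dec_Sam (log2 fold change 0.76 ± 0.09, adjusted p = 4.9e-06, and 0.87 ± 0.09, adjusted p = 1.5e-06). MAGEA11 rose less, from 91, 76 and 107 counts to 163, 153 and 135 in Dec (0.49 ± 0.16, adjusted p = 0.015). In Dec_Sam it had 119, 151 and 148 counts (0.41 ± 0.16, adjusted p = 0.036), where the CPM overlapped with Ctrl. Its call was lost when Ctrl replicate 2 or Dec replicate 1 was left out in Dec (adjusted p = 0.09 and 0.056), and when Ctrl replicate 1 or 2, Dec replicate 2, or Dec_Sam replicate 2 or 3 was left out in Dec_Sam (adjusted p 0.052 to 0.17).

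Of the genes just given with values, MAGEA3, MAGEA6 and MAGEA12 are neighbours and MAGEA11 lies elsewhere. MAGEA3, CSAG2, MAGEA2B, CSAG1, MAGEA12, MAGEA2, CSAG3 and MAGEA6 lie in this order within 70950 bases (X:152698767-152769716, GRCh38). Of these 8 genes, 7 had a control mean of at least 10 counts, out of 13 such members in all 12 families. CSAG1 and MAGEA12 start head to head, 22 bases apart, and their RefSeq windows share 135 bases. CSAG3 and MAGEA2 start 37 bases apart, as do CSAG2 and MAGEA2B, and CSAG3 and MAGEA2 share 136 bases of window. CSAG1, named for chondrosarcoma, moved with its neighbour MAGEA12, from 434, 461 and 405 counts in Ctrl to 653, 736 and 779 in Dec and 853, 778 and 713 in Dec_Sam (0.50 ± 0.10, adjusted p = 0.00041, and 0.65 ± 0.10, adjusted p = 4.3e-05).

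Outside that stretch, and apart from MAGEA11, the tested MAGEA genes had at most 46 counts in a Ctrl library. MAGEA4, a target of T cell therapies, had 0, 3 and 1 counts in Ctrl, 2495, 2751 and 1947 in Dec, and 2089, 1828 and 1639 in Dec_Sam. That is 1530-fold higher in Dec and 1210-fold in Dec_Sam (log2 fold change 10.46 ± 0.32, adjusted p = 2.9e-10, and 10.13 ± 0.32, adjusted p = 4.5e-10). MAGEA4 passed the filter only through the treated libraries, so these p-values are not support for a direction. With so few Ctrl counts the fold is loose: without Ctrl replicate 2 it was 4100 in Dec and 3250 in Dec_Sam, and without Ctrl replicate 1 it was 1020 and 806. The sources used here do not say that counting used strand, so reads of a gene and of an antisense transcript over it may be mixed. Such transcripts overlap MAGEA4, MAGEB17, MAGEC2, SPANXA1, SPANXC, SPANXN3 and SSX2B, and SAGE1 overlaps CT45A10 in the same way. MAGEA10 rose from 46, 32 and 26 counts to 407, 458 and 396 in Dec, and 386, 383 and 389 in Dec_Sam (10.3-fold and 9.72-fold). MAGEA1 rose from 15, 13 and 18 counts to 181, 186 and 149 in Dec, and 137, 126 and 119 in Dec_Sam (9.54-fold and 7.25-fold). MAGEA8 and MAGEA9B had no counts in Ctrl and 75 to 96 and 41 to 54 counts in Dec.

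The MAGEB and MAGEC genes encode the same MAGE homology domain. MAGEB2 had no counts in any Ctrl library, 644, 640 and 795 in Dec, and 494, 454 and 638 in Dec_Sam, at least 590-fold and at least 462-fold higher when Ctrl is set to 3 counts over its 3 libraries. Of the other MAGEB genes, MAGEB1 had 132, 99 and 95 counts in Dec, MAGEB10 141, 118 and 106, and MAGEB6 173, 226 and 211, with at most 1 count in a Ctrl library. MAGEB17 had 32, 20 and 21 counts in Ctrl and 52, 34 and 26 in Dec, which did not pass the test (log2 fold change 0.38 ± 0.33, adjusted p = 0.31). It was called higher in Dec_Sam (63, 51 and 34 counts, 0.82 ± 0.32, adjusted p = 0.033), with CPM that overlapped with Ctrl. MAGEC2, a partner of TRIM28, rose from 4, 5 and 1 counts to 663, 663 and 585 in Dec and 608, 605 and 584 in Dec_Sam (163-fold and 157-fold). MAGEC1 had no counts in Ctrl, 540, 596 and 567 in Dec, and 425, 455 and 398 in Dec_Sam, at least 483-fold and at least 372-fold higher. MAGEC3 had 0, 1 and 5 counts in Ctrl, 64, 58 and 75 in Dec, and 38, 35 and 43 in Dec_Sam (27.9-fold and 16.9-fold, but 111-fold and 66.9-fold without Ctrl replicate 3).

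The SPANX genes were nearly silent in Ctrl. Their sum was 0.413 CPM in Ctrl, 189 ± 26.4 CPM in Dec and 164 ± 11.2 CPM in Dec_Sam (SD, n = 3), 458-fold higher in Dec. SPANXA2 had 5, 3 and 9 counts in Ctrl, 2647, 3407 and 2887 in Dec, and 2265, 2406 and 2486 in Dec_Sam. SPANXA1, at no counts in Ctrl, had 423, 543 and 599 in Dec and 355, 465 and 494 in Dec_Sam, but its coding sequence and its 300-base window are identical to those of SPANXA2, so only their total is measured well. SPANXB1, which differs more, rose from 2, 0 and 1 counts to 343, 502 and 456 in Dec and 373, 413 and 461 in Dec_Sam. SPANXN1 to SPANXN5, the older branch of the family, had at most 2 counts in a library; SPANXN3, SPANXN4 and SPANXN5 had none.

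CTAG1A and CTAG1B encode the same protein, the antigen NY-ESO-1 used in vaccines and T cell therapies, from identical coding sequences at X:154585133-154586816 and X:154617609-154619282. Together they had 0, 0 and 1 counts in Ctrl, 421, 525 and 487 in Dec, and 336, 327 and 287 in Dec_Sam. The ratio of Dec to Ctrl was 1220, with a 95% exact interval of 218 to 48200 that covers counting error only. CTAG2, its close relative, had 2, 0 and 0 counts in Ctrl, 141, 162 and 140 in Dec, and 164, 157 and 141 in Dec_Sam (ratios of 188, interval 51.9 to 1560, and 202, interval 55.5 to 1670).

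The GAGE, PAGE and XAGE families encode related short proteins. The GAGE genes summed to 0.745 CPM in Ctrl, 13.1 ± 2.10 CPM in Dec and 17.1 ± 2.31 CPM in Dec_Sam, and GAGE12F had 0, 5 and 6 counts in Ctrl, 134, 115 and 182 in Dec, and 164, 137 and 192 in Dec_Sam. GENCODE's GAGE12F spans the gene GAGE12E, to which no counts were assigned. PAGE2B had no counts in Ctrl, 519, 505 and 569 in Dec, and 471, 464 and 559 in Dec_Sam, at least 452-fold and at least 435-fold higher. Its coding sequence is 96.131% identical to that of PAGE2, so these bounds depend on how shared reads were divided. Together PAGE2 and PAGE2B had 4, 3 and 2 counts in Ctrl and were 227-fold higher in Dec and 197-fold in Dec_Sam. PAGE5 rose from 11, 15 and 11 counts to 357, 344 and 310 in Dec and 262, 226 and 268 in Dec_Sam. PAGE4, a stress-response protein of the normal and cancerous prostate, had no counts in any library, and its RefSeq window holds CACGTG as those of PAGE1, PAGE2B and PAGE5 do. XAGE1A and XAGE1B share 1 coding sequence and together rose from 3, 5 and 2 counts to 566, 600 and 692 in Dec and 543, 490 and 662 in Dec_Sam (158-fold and 148-fold), while XAGE2, XAGE3 and XAGE5 had at most 10 counts in a library.

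The SSX genes, the fusion partners of SS18 in synovial sarcoma, rose to low levels. SSX1 had no counts in Ctrl, 63, 75 and 64 in Dec, and 47, 46 and 60 in Dec_Sam. The family sum was 0.0497 CPM in Ctrl, 7.68 ± 0.519 CPM in Dec and 7.33 ± 1.02 CPM in Dec_Sam (SD, n = 3). The CT45A genes, a tandem array near X:135713639-135893444, summed to 3, 2 and 9 counts in Ctrl, 951, 953 and 829 in Dec, and 683, 605 and 650 in Dec_Sam (166-fold and 121-fold, but 309-fold and 225-fold without Ctrl replicate 3). The CT47A genes, an array of 12 loci, summed to 1, 1 and 4 counts in Ctrl, 91, 98 and 137 in Dec, and 169, 159 and 153 in Dec_Sam (46.2-fold and 70.0-fold, but 92.1-fold and 139-fold without Ctrl replicate 3).

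The direct comparison of Dec_Sam with Dec asks whether the methyl donor changed the level that decitabine set, and here the changes were small beside those against Ctrl. Of 57 members, 5 were called lower (8.77%) and 0 higher, beside 8.02% and 7.67% of all genes tested and 6.67% and 7.62% of the other protein-coding genes of chromosome X, so the share called lower was near the background. At an unadjusted p under 0.05 edgeR gave 16 of the 57 members lower and 1 of the 57 higher. Of all genes, 15.6% were lower and 15.9% higher, so the members leaned to the lower side and all genes did not. DESeq2 called 6 lower and 0 higher, and voom with limma 5 and 0. The median log2 fold change was -0.11 over the members and 0.002 over all genes, 37 members had a negative value and 19 a positive one. All 3 Dec_Sam libraries lay below all 3 Dec libraries for 16 of the 57 members, and above them for 1 of the 57, GAGE2A. Of all genes, 16.8% lay wholly below and 17.2% wholly above. Near-identical members are not independent, so these counts rest on fewer genes than they name.

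The 5 members called lower came from 4 families. CTAG1A fell from 406, 502 and 459 counts in Dec to 316, 296 and 277 in Dec_Sam (log2 fold change -0.58 ± 0.12, adjusted p = 0.008). PAGE2 fell from 282, 274 and 251 to 201, 170 and 169 (-0.54 ± 0.13, adjusted p = 0.014), and CT45A9 from 162, 196 and 136 to 107, 66 and 100 (-0.82 ± 0.21, adjusted p = 0.019). MAGEC1 fell from 540, 596 and 567 to 425, 455 and 398 (-0.38 ± 0.10, adjusted p = 0.029), and PAGE5 from 357, 344 and 310 to 262, 226 and 268 (-0.38 ± 0.12, adjusted p = 0.041). In each of the 5 the libraries of the 2 groups did not overlap, and in each Dec_Sam remained above Ctrl. MAGEC1 has 97.2% of its 31-base words to itself in the transcriptome and PAGE5 74.6%, so fewer of their reads are shared with copies, although PAGE5 and PAGE2B have 94.643% of their coding sequence in common. CTAG1A has 0.992% and CT45A9 2.32%. The number called lower was 0 without Dec replicate 2, 1 without Dec_Sam replicate 2 and 3 without Dec_Sam replicate 1. CTAG1A kept its call in 8 of 9 such fits, CT45A9 in 7, PAGE2 in 6, and MAGEC1 and PAGE5 in 5.

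**Figure D3:**
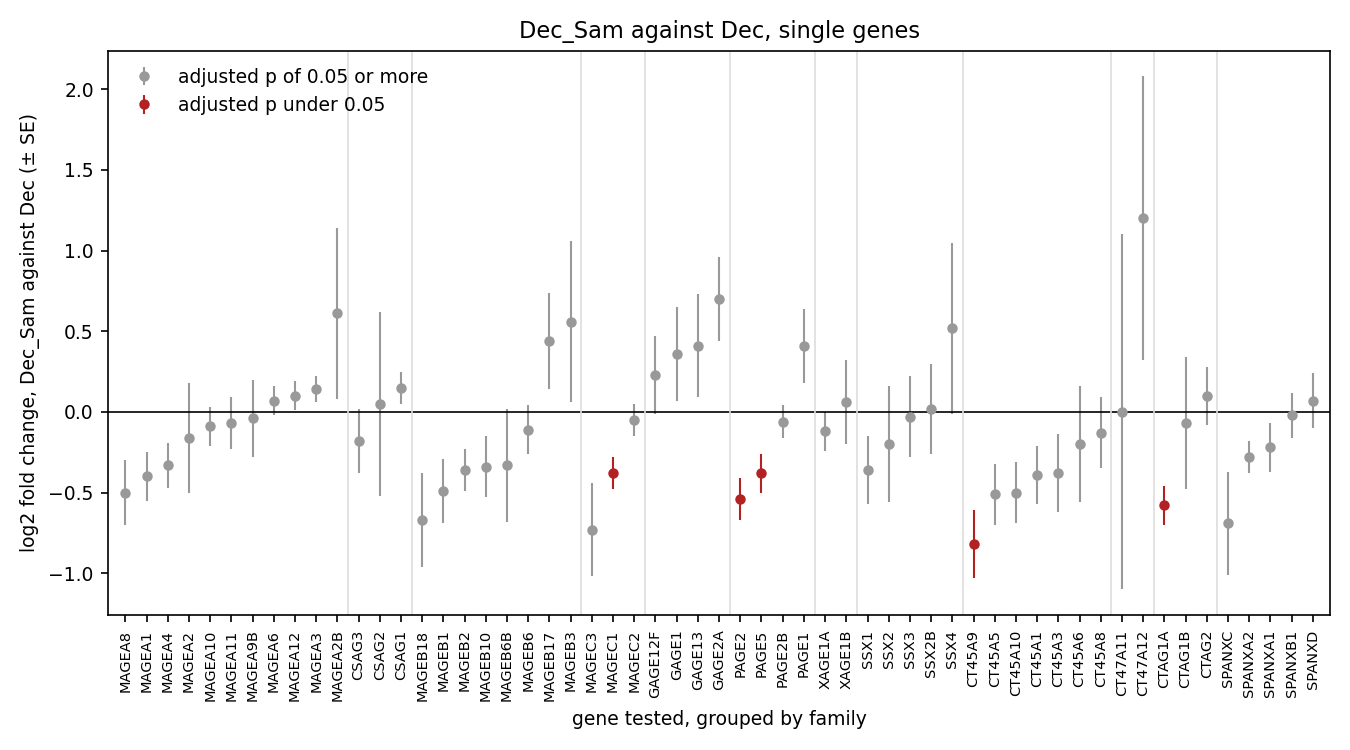
log2 fold change of Dec_Sam against Dec (points, with bars of 1 SE) for the 57 members tested, by family; red points have an adjusted p under 0.05. The 5 red points lie between -0.82 and -0.38, and no point above 0 is red.

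By family, the summed CPM was lower in every Dec_Sam library than in every Dec library for CT45A (ratio of the group sums 0.728), CTAG (0.772), MAGEB (0.819), MAGEC (0.859) and PAGE (0.860), and higher for CT47A (1.51). For CSAG, GAGE, MAGEA, SPANX, SSX and XAGE the libraries overlapped, with ratios from 0.867 in SPANX to 1.31 in GAGE. All 7 tested CT45A genes had a negative log2 fold change and all 4 tested GAGE genes a positive one, but these are copies that share reads. No test was run on the family sums, except for CT45A and CT47A, whose members are all near-identical copies and were tested as sums below.

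Near-identical copies set how far single genes can be read. Of the 95 members, 55 fall into 13 sets with at least 95% identity of the coding sequence, 45 have under 10% of their 31-base words to themselves, and 21 have none. kallisto, which assigns reads by such words, divides the shared reads by an estimate. Of the 12 CT47A loci, 7 carried the same estimated count in every library, so that their values are 1 estimate and not 7. CT47A11 had 69, 60 and 126 counts in Dec but 1, 132 and 115 in Dec_Sam, while CT47A12 had 18, 30 and 0 and then 69, 16 and 23. Taken alone, CT47A11 did not pass the test in Dec (adjusted p = 0.052). Summed over the 12 loci, CT47A did (log2 fold change 5.45 ± 0.36, adjusted p = 1.2e-08). With 1, 1 and 4 counts in Ctrl the sum passed the filter only through the treated libraries, so that call is not support for a direction. The sum was also higher in Dec_Sam than in Dec (0.60 ± 0.19, adjusted p = 0.048).

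MAGEA2 and MAGEA2B have identical coding sequences. In Ctrl, MAGEA2 had 89, 36 and 130 counts and MAGEA2B 95, 111 and 17, whereas their sum was 184, 147 and 147. In Dec the sum was 721, 724 and 726 counts, although MAGEA2B alone had 244, 108 and 268 and did not pass the test (adjusted p = 0.11). The sum rose in both comparisons with Ctrl (1.95 ± 0.11, adjusted p = 2.3e-09, and 2.06 ± 0.11, adjusted p = 1.4e-09) and did not pass against Dec (0.11 ± 0.10, adjusted p = 0.50).

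With such sets summed before the fit, 36 features remained, of which 34 were higher in Dec and 35 in Dec_Sam than in Ctrl, and 0 lower with edgeR. In the main fit 36.3% and 35.9% of all genes were higher. Sets such as CTAG1A with CTAG1B (0, 0 and 1 counts in Ctrl) again passed the filter only through the treated libraries, so these counts are not support for a direction. MAGEA3 plus MAGEA6, whose coding sequences differ by 18 base edits over 945 bases, had 6287, 6209 and 6606 counts in Ctrl, 7708, 8212 and 6993 in Dec, and 8863, 7942 and 7111 in Dec_Sam, and did not pass in Dec (0.03 ± 0.09, adjusted p = 0.78) or Dec_Sam (0.13 ± 0.09, adjusted p = 0.21). Against Dec, 4 of the 36 features were lower in Dec_Sam, beside 8.02% of all genes in the main fit. They were MAGEC1, PAGE5, the pair CTAG1A and CTAG1B (-0.55 ± 0.13, adjusted p = 0.011) and the 9 CT45A genes (-0.46 ± 0.11, adjusted p = 0.015). PAGE2 with PAGE2B no longer passed (-0.20 ± 0.08, adjusted p = 0.11), and the SPANXA, SPANXC and SPANXD set did not pass (-0.23 ± 0.10, adjusted p = 0.15), nor did the GAGE set (0.38 ± 0.14, adjusted p = 0.07). A member with no counts, such as MAGEA9, CT45A2 or GAGE12C, may for the same reason have lost its reads to a copy.

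**Figure D4:**
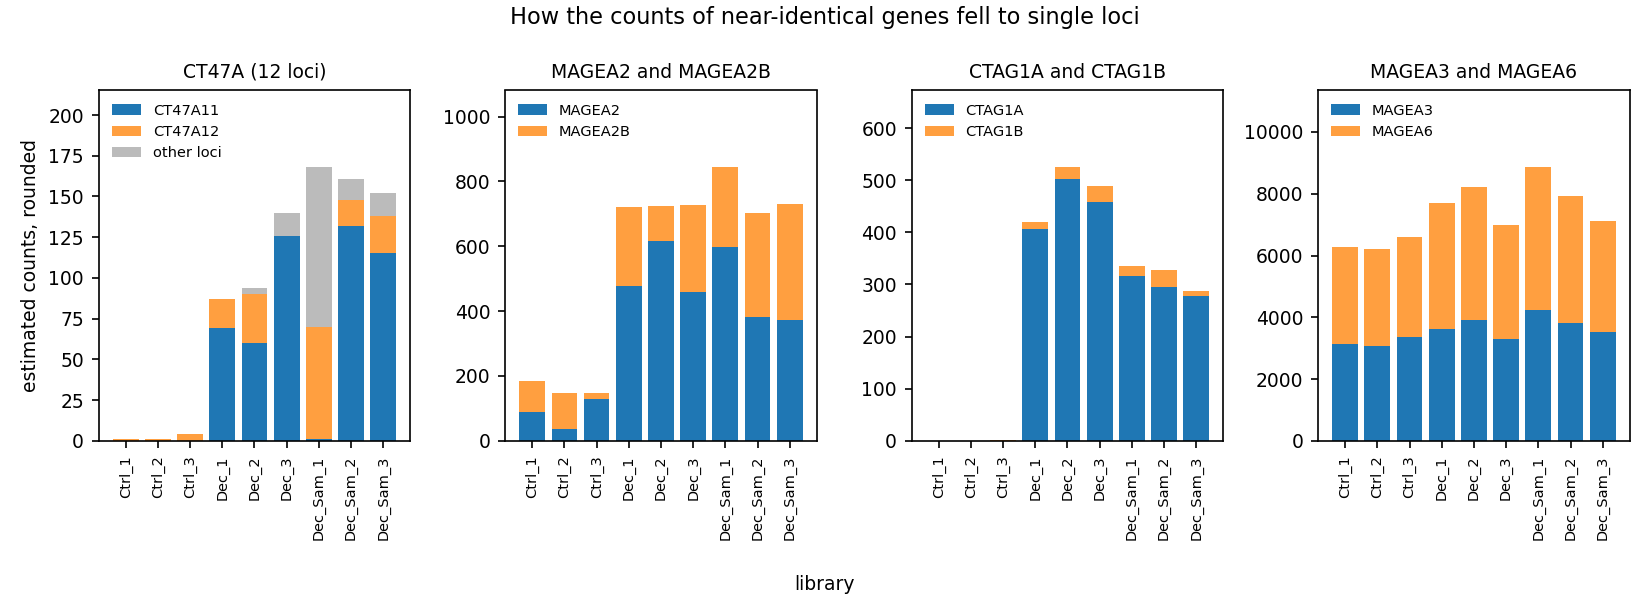
Rounded estimated counts (bars from 0) of 4 sets of near-identical genes in the 9 libraries, stacked by locus. The division between CT47A11, CT47A12 and the other loci, and between MAGEA2 and MAGEA2B, changes from library to library: the MAGEA2 pair sums to 721, 724 and 726 in Dec while MAGEA2B takes 244, 108 and 268 of it.

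Other cancer-testis genes of chromosome X, from a list outside the 12 families, gave these counts: of 12 tested, 11 were higher in Dec and 11 in Dec_Sam than in Ctrl, 0 were lower, and between Dec_Sam and Dec 0 were called. Of all genes, 36.3% were higher in Dec and 35.9% in Dec_Sam. Several of the 12, among them FTHL17, DDX53 and LUZP4, had no counts in Ctrl. These passed the filter only through the treated libraries and could only be called higher, so the counts are not support for a direction. TKTL1, a transketolase-like gene, went from 0.0497 CPM in Ctrl to 231 ± 10.9 CPM in Dec and 240 ± 10.5 CPM in Dec_Sam (SD, n = 3). PASD1 had 1.89, 2.37 and 1.76 CPM in the same order and did not pass the test in Dec (adjusted p = 0.15).

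Of 23 listed chromatin regulators that repress or activate cancer-testis genes, 22 were tested, and 18 were lower and 1 higher in Dec, 17 lower and 2 higher in Dec_Sam, beside 32.5% lower and 36.3% higher of all genes in Dec, and 31.3% and 35.9% in Dec_Sam. The list mixes repressors and activators, so these are not counts of repressors alone. DNMT1, the maintenance DNA methyltransferase, fell from 404 CPM in Ctrl to 230 in Dec and 237 in Dec_Sam (log2 fold change in Dec -0.81 ± 0.10, adjusted p = 4e-06). DNMT3B was the 1 gene higher in Dec, from 8.09 CPM in Ctrl to 13.4 (0.73 ± 0.14, adjusted p = 0.00042). TET1 fell from 10.6 CPM in Ctrl to 2.31 in Dec (-2.19 ± 0.22, adjusted p = 6.5e-07). UHRF1, which brings DNMT1 to replicated DNA, fell from 152 CPM to 86.8 in Dec, and it was called higher in Dec_Sam (128 CPM) than in Dec (0.55 ± 0.10, adjusted p = 0.0039). L3MBTL2, a partner of E2F6 and MGA in the PRC1.6 complex, fell from 57.8 CPM to 27.7 in Dec and was lower again in Dec_Sam (21.4 CPM, -0.37 ± 0.08 against Dec, adjusted p = 0.0097). E2F6 itself had 27.0, 20.3 and 21.9 CPM and fell in Dec (-0.41, adjusted p = 0.0016), and MGA had 48.9, 56.4 and 59.4 CPM and was called higher in Dec_Sam (0.28, adjusted p = 0.024) but not in Dec (0.20, adjusted p = 0.086), a difference that was not tested as such. The part of these genes in the levels of the cancer-testis antigens was not tested.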

How the data were processed

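RNA of 9 PC-3 libraries (3 each of Ctrl, Dec and Dec_Sam) was sequenced. The authors trimmed reads with Trim Galore 0.6.4 and estimated transcript abundance with kallisto (0.4.6 in the submitters' processing notes, which also name edgeR 3.17) on GRCh38.p13, and the deposited values are estimated counts per gene. The annotation release and any strand setting are not given in the sources used here. kallisto divides reads shared by near-identical transcripts, so single copies are less certain than their sum.

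Estimated counts were rounded. All 60617 genes entered the library sizes, and 18532 passed edgeR's expression filter. The main test was the robust quasi-likelihood test of edgeR 4.0.16 (R 4.3.3) with TMM factors over all 9 libraries, adjusted by Benjamini-Hochberg over all genes tested, with a threshold of 0.05. DESeq2 1.42.0 and voom with limma 3.58.1, other scalings, filters, fold thresholds, summed copies and left-out libraries were alternatives. The fitting code was tested on simulated data. Totals of 21934307 to 22489684 reads set the precision of low counts, and intervals and floors cover counting error only. A group at 0 was set to 3 counts over its 3 libraries for a fold. Ratios on 1 to 3 control counts carry 95% exact intervals. Family sums were compared without a test, except CT45A and CT47A, which were also tested as summed copies.

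Members were matched by gene identifier to GENCODE 44, and near-identical sets were built from coding sequences of at least 95% identity (edlib, single linkage) and 31-base words. Promoter windows came from RefSeq (GRCh38.p14). The members and the gene lists were chosen with earlier results of these data known. Genes were named if they had their family's highest CPM, were called between Dec_Sam and Dec, were among the 5 largest rises with at least 50 counts, had a control mean of at least 50 counts or had no counts, and others were named to complete their family. No libraries were copies of one another (chi-square per degree of freedom 5.86 to 23.5).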

Additional observations from a re-analysis of the deposited data

How the results depend on the processing

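Of the family counts, sums and single genes recomputed, 1186 single-gene values kept direction and side of the threshold, 26 gained and 29 lost a call, and 12 turned sign. With near-identical members summed, 35 features were called against Ctrl in Dec_Sam, all higher (35.9% of all genes were higher in the main fit). Of the same features, 1 (the CT47A set) was higher in Dec_Sam than in Dec (7.67% of all genes in the main fit). Without a filter on low counts 14 members were called between Dec_Sam and Dec, 7 of them higher, and these 7 are the CT47A loci with identical values. The replicate block gave 8 members called lower between Dec_Sam and Dec in place of 5, but the labels tie a replicate number to nothing shared and the samples were not treated as paired. Correlations of the deviations of same-numbered libraries were 0.233, 0.0359 and 0.229 between Dec and Dec_Sam, where each library correlated best with its own number, a hint from the data and not the design, and -0.0165 to 0.0694 between Ctrl and the treated groups. With a log2 fold change over 1 or over 1.5 besides, 0 members were called there. Leaving out 1 library at a time moved the number called lower, and the number called, from 0 to 6. CT47A11 between Dec_Sam and Dec turned to 0.00 without a filter and with counts not rounded, to 0.60 when summed, and ranged from -0.53 to 0.57 over left-out libraries. MAGEA2 summed was 0.11 there. MAGEA6 ranged from -0.03 to 0.17 and MAGEA11 from -0.14 to 0.02 there. MAGEA3 in Dec against Ctrl was 0.19 with library size alone, 0.03 when summed and -0.12 to 0.00 over left-out libraries, and in Dec_Sam against Ctrl -0.01 to 0.15. The log2 ratio of the MAGEA sum between Dec_Sam and Dec was -0.01 with library size alone and -0.07 to 0.09 over left-out libraries, SSX ranged from -0.18 to 0.01 and XAGE from -0.20 to 0.01. The sum of all members against Ctrl was 1.66 in Dec and 1.56 in Dec_Sam with library size alone. The cause of these changes was not tested. The depth limits what can be said of members with a few counts in a library.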

Other observations

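Outside chromosome X, 22 of 31 listed autosomal cancer-testis genes were tested, and 13 were higher and 7 lower in Dec than in Ctrl, 13 higher and 5 lower in Dec_Sam, beside 36.3% higher and 32.5% lower of all genes in Dec, and 35.9% and 31.3% in Dec_Sam. LY6K, a surface protein of germ cells, rose from 1.90 CPM to 37.2 in Dec and 35.3 in Dec_Sam (log2 fold change in Dec 4.28, adjusted p = 3.3e-11). HORMAD1, a meiotic chromosome axis protein, had no counts in Ctrl and 8.44 CPM in Dec and 6.39 in Dec_Sam, and PRAME had 8.31, 8.16 and 8.79 CPM. Between Dec_Sam and Dec 7 of the 22 were higher and 1 lower, beside 7.67% and 8.02% of all genes. The higher ones included the mitotic genes TTK (0.45, adjusted p = 0.0098), PBK (0.62, adjusted p = 0.0025) and KIF2C (0.41, adjusted p = 0.0039). These mitotic genes were already on in Ctrl (53.7, 65.5 and 94.2 CPM). The germ cell gene TDRD6 was also higher (0.46, adjusted p = 0.022), and CABYR was lower (-0.35, adjusted p = 0.039).

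Of 9 tested MAGE genes that are not restricted to testis, 2 were higher and 4 lower in Dec, 1 higher and 6 lower in Dec_Sam, against the same shares of all genes. NDN, an imprinted member chosen after its values were seen, had no counts in Ctrl and 19, 11 and 16 in Dec, at least 13-fold higher (adjusted p = 4.5e-05). NDN passed the filter only through the treated libraries, so this p-value is not support for a direction. MAGED1 went from 402 ± 29.1 CPM in Ctrl to 306 ± 63.7 in Dec and 198 ± 11.6 in Dec_Sam (SD, n = 3), and was lower in Dec_Sam than in Dec (-0.63 ± 0.13, adjusted p = 0.0091). Of 9 listed genes tied to MAGE ubiquitin ligases, 2 were higher and 5 lower in Dec, 1 and 5 in Dec_Sam. USP7 and PRKAA1 are in this list but are not ligases, and both were called lower in Dec and in Dec_Sam. Of all genes, 36.3% were higher and 32.5% lower in Dec, and 35.9% and 31.3% in Dec_Sam. TRIM28 fell from 698 ± 21.3 CPM to 348 ± 9.42 in Dec, and TRIM69 rose from 36.6 to 81.6 CPM in Dec and had 34.1 in Dec_Sam (-1.26 ± 0.11 against Dec, adjusted p = 0.00018).

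Of the other marker lists, the 5 epithelial genes summed to 875 to 956 CPM in Ctrl, 869 to 921 in Dec and 727 to 867 in Dec_Sam. The 3 endothelial genes summed to 9.88 to 10.6, 31 to 41.7 and 36.6 to 43.9 CPM, and the 4 testis somatic genes to 88.5 to 114, 78.2 to 94.2 and 81.8 to 105 CPM.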
